A study of Mus musculus with 12 samples.

Results

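The resting state of bone marrow-derived dendritic cells was described from the 3 arrays labelled Unstimulated (letters A, B and C), out of 12 arrays in the series. On each array the RNA of the cells, in Cy5, was set against Universal mouse reference, a pool of mouse RNA sold by Stratagene, in Cy3, and the log2 ratio of cells to reference of every non-control probe was tested against 0. Marrow cells from mouse leg bones were depleted of B and T cells and grown for 5 days in GM-CSF (10 ng/ml) and IL-4 (5 ng/ml), cytokines that all 12 samples received. The unstimulated cells had 0 h of lipopolysaccharide (LPS, a bacterial cell wall component), and the other 9 arrays carry cells given 100 ng/ml for 1, 6 or 24 h, with 3 samples at each time. The labels name the letters as donors and the samples as biological replicates. They give no strain, age or sex of the mice and no sort of the cells, which were gathered by pipetting, so the arrays measure the whole gathered culture. In such bulk RNA, fewer cells of a type and less RNA per cell cannot be told apart.

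GM-CSF signals through a receptor with a common beta chain to JAK2 and STAT5 and drives marrow precursors towards macrophages and dendritic cells. IL-4 signals through STAT6 and turns on a set of secreted lectins, chemokines and enzymes in these cells, while PU.1 (gene Spi1) is the transcription factor on which the myeloid lineage rests. A dendritic cell takes up antigen, cuts it in lysosomes and shows the peptides on MHC class II, and when it senses a microbe it raises costimulatory molecules and moves to lymph nodes.

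A gene was called enriched or depleted where its adjusted p was under 0.05 and it differed at least 2-fold from the reference. Against that reference 1472 genes were enriched (12.2% of genes tested) and 1881 depleted (15.6%). Counts of list members given below stand against these shares. All these counts include genes with a signal above background in 1 channel alone, the cells or the reference. With both channels required on all 3 arrays, 10135 genes were left, of which 1368 were enriched and 1459 depleted. Upstream sequences are shown first because short words known as binding sites recur in some of the gene groups; the 4 words searched were chosen with the ratios known. The PU.1-type word GAGGAAGT was searched on both strands in the 250 bases before each gene's start, in RefSeq sequence of GRCm38.p6. Of the enriched genes 1160 had such a sequence, and of the 129 enriched at least 16-fold 95 had one. The word lay in 11.6% of those 95 sequences (11 genes), in 5.26% of the 1160, in 2.58% of the 1433 for depleted genes, in 2.87% of the 9676 for all genes tested and in 2.79% of all 27025. Among the lists described further on it lay in 3 of 23 pan-leukocyte genes (13%), 2 of 15 IL-4 responsive genes (13.3%) and 1 of 25 lysosome genes (4%). The 11 are given 5′ to 3′ on the gene's strand, with up to 16 bases on either side of the word, and the capitals mark it in either orientation.
Bcl2a1b, chr9:89199109-89199148, plus strand: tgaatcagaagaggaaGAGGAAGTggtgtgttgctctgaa
Bcl2a1c, chr9:114329905-114329944, plus strand: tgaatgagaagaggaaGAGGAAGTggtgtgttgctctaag
Fbp1, chr13:62888324-62888363, minus strand: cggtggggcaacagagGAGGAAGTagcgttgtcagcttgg
Lilra6, chr7:3915628-3915667, minus strand: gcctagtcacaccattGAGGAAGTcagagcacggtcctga
Pirb, chr7:3720479-3720518, minus strand: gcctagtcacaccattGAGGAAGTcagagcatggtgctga
Pycard, chr7:127993888-127993927, minus strand: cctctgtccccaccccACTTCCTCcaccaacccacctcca
Retnla, chr16:48842395-48842434, plus strand: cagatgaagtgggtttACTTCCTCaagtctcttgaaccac
Mmp12, chr9:7344293-7344332, plus strand: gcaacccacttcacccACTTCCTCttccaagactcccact
S100a8, chr3:90668883-90668922, plus strand: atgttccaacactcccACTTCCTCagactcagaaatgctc
Il4i1, chr7:44836139-44836178, plus strand: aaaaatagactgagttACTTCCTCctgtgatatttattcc
Chn2, chr6:54269070-54269109, plus strand: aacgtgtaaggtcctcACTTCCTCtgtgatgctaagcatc

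The log2 ratios of these 11 genes ran from 4.11 for Chn2 to 7.51 for Bcl2a1b. There are 2 pairs of paralogues with almost the same letters around the word among them (Bcl2a1b with Bcl2a1c, Pirb with Lilra6), so the 11 sequences are not independent. A STAT6-type site, TTC and GAA with 4 bases of any kind between, which reads alike on both strands, was searched in the upstream sequences of the IL-4 responsive genes listed further on. It lay in 3 of the 15 that had a sequence (20%), against 5.9% of all genes tested, 7.37% of those enriched at least 16-fold, 3 of 23 pan-leukocyte genes (13%) and 2 of 22 DNA replication genes (9.09%). With so few hits in each list, nothing particular to the IL-4 list is read from them. None of its matches shown here overlaps a GAGGAAGT match.
Ccl17, chr8:94810283-94810324, plus strand: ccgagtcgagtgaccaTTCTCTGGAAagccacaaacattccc
Retnla, chr16:48842448-48842489, plus strand: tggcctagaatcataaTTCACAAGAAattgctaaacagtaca
Pdcd1lg2, chr19:29410821-29410862, plus strand: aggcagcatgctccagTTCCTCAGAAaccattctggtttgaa

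The palindrome TCACGTGA that marks many lysosomal genes, lay in 4 of the 25 lysosome genes with a sequence (16%), against 1.65% of all genes tested. Those 4 did not share a ratio: Ctsd (1.90) and Atp6v1a (1.07) were enriched, and Mcoln1 (-0.09) and Ctsa (-0.38) were not called.
Ctsd, chr7:142387903-142387942, minus strand: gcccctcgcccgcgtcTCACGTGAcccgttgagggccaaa
Atp6v1a, chr16:44139368-44139407, minus strand: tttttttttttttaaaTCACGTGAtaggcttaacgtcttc
Mcoln1, chr8:3500457-3500496, plus strand: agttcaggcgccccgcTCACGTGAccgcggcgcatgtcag
Ctsa, chr2:164833744-164833772, plus strand: aacaatgagcaaactgTCACGTGAtgcag
An E2F-type word, TTTGGCGC, E2F being a switch of S phase genes, lay in 3 of the 22 DNA replication genes with a sequence (13.6%), against 0.796% of all genes tested. Mcm6 (-0.97), which holds it in 2 places, Mcm5 (-0.67) and Pola1 (-0.51) were not called.
Mcm6, chr1:128359792-128359831, minus strand: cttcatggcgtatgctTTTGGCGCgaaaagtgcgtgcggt
Mcm6, chr1:128359729-128359768, minus strand: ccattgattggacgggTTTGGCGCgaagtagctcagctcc
Mcm5, chr8:75109344-75109383, plus strand: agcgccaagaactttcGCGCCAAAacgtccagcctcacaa
Pola1, chrX:93632270-93632309, minus strand: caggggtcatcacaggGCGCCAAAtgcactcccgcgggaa
A match is a stretch of letters and not a measured binding site, and these shares describe the lists without a test.

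The 3 arrays measured 41174 probes, of which 24708 were well above background in the cells or the reference on all 3 arrays, and 12074 genes could be named among these through RefSeq accessions. Between 51.6% and 53.7% of probes were above background in the cells and between 60.6% and 62.1% in the reference, and no spot was saturated. All 3 lay on the same slide. The log2 ratios of all genes correlated across genes at r of 0.979 (A with B), 0.983 (A with C) and 0.976 (B with C), where genes are not independent replicates. The median SD of a gene over the 3 arrays was 0.13 on the log2 scale, and 95% of genes had an SD under 0.33. The number of arrays, 3, limits the precision. Every array carried the cells in Cy5, with no dye swap, so a dye bias of a probe cannot be told apart from a true ratio.

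By probe, 2519 of 24708 were enriched (10.2%) and 3018 depleted (12.2%). All 3353 called genes had the same sign on the 3 arrays. Enriched genes made up 43.9% of the calls over genes; they made up 55.8% when the loess step was replaced by median centring, which moved the median log2 ratio of all genes from -0.07 to 0.07, and 33.8% with signals already processed by the scanner software, which moved it to -0.30. At 4-fold or more, 533 genes were enriched and 593 depleted, and at 16-fold or more 129 and 81. The plot of ratio against intensity shows that dim genes lie in a wedge: the offset added in background correction draws their ratios towards 0, so ratios of dim genes are understated.

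**Figure D1:**
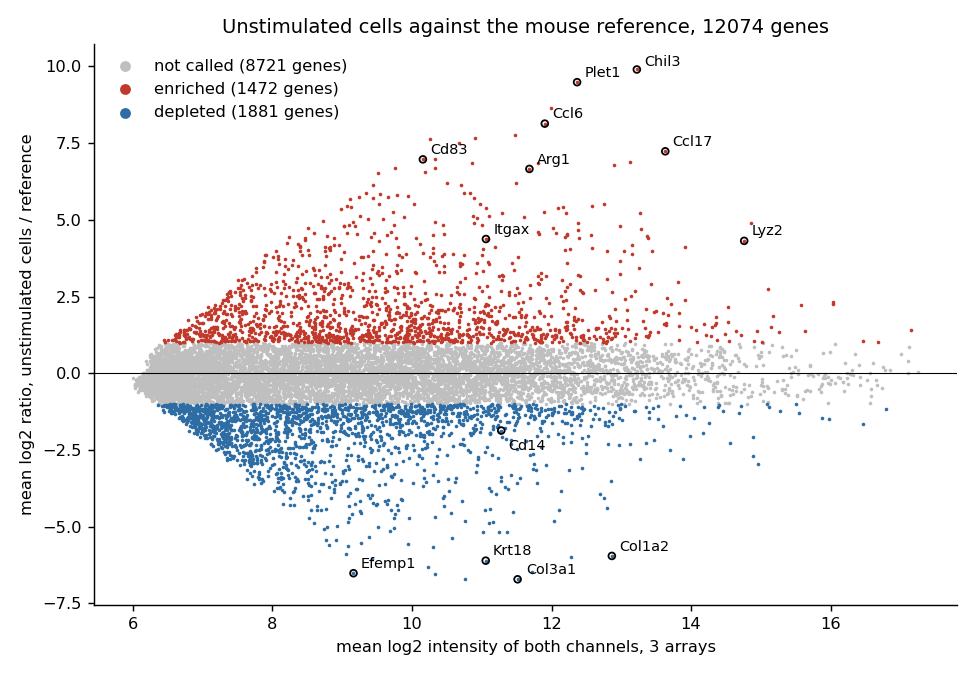
Mean log2 ratio of unstimulated cells to reference (vertical axis) against the mean log2 intensity of both channels (horizontal axis) for 12074 genes, with 1472 enriched genes in red, 1881 depleted genes in blue and the others in grey. Chil3 lies highest at 9.90 and Col3a1 lowest at -6.71, and the range of ratios widens from dim to mid-intensity genes.

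The highest ratio belonged to Chil3, a secreted chitinase-like lectin also called Ym1. Its log2 ratios were 10.02, 9.76 and 9.92 on arrays A, B and C, a mean of 9.90 ± 0.13 (SD, n = 3), or 957-fold (adjusted p = 5.26e-13). Plet1, a surface glycoprotein first described in placenta, stood at 9.50, 9.51 and 9.45, and the 3 arrays differed by no more than 0.07. A second, dimmer Plet1 probe gave 5.06, so its size depends on the probe. Chil4, the neighbour and close paralogue of Chil3, had a mean of 8.63. The probes of such paralogues can catch each other's RNA, so their separate levels are uncertain, as are those of the stefin-like Csta2 (7.66) and Cstdc6 (7.65) and of Bcl2a1b (7.51), a BCL2-family survival protein. The further probes of Cstdc6 gave 5.67 and 4.88.

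The other 6 of the 12 highest genes were chemokines, lectins and surface or calcium-binding proteins. The chemokine Ccl6 had ratios of 8.08, 8.08 and 8.25 (mean 8.14), Ccl17, which draws cells with CCR4, 7.26, 7.32 and 7.13 (mean 7.24), and Ccl24, which draws eosinophils, 6.83, 6.84 and 6.99 (mean 6.89), with 6.35 from its other probe. Clec10a, a lectin that binds galactose-type sugars, had a mean of 6.99, and Cd83, which marks maturing dendritic cells, 6.97. S100a9, a calcium-binding protein abundant in neutrophils and monocytes, was the least even of the 12, at 8.07 on array A and 7.65 and 7.61 on B and C.

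The 12 lowest genes were mostly products of connective tissue and epithelium. Col3a1, a fibrillar collagen, had ratios of -6.56, -6.82 and -6.76, a mean of -6.71 ± 0.14 (SD, n = 3), with an adjusted p of 2.98e-12. Its dimmer second probe gave -0.83 and was not called, so its place as the lowest gene rests on 1 probe. Col1a1 (-6.48) and Col1a2 (-5.95), the chains of type I collagen, Serpinh1 (-6.30), their chaperone, and Pcolce (-5.97), which helps to process procollagen, lay beside it. The further probes of Col1a1 gave -3.68 and -0.97, the last not called, and that of Cxcl12 -2.43. Tm4sf1 (-6.70), Cavin2 (-6.54), Krt18 (-6.10), the stromal chemokine Cxcl12 (-6.05) and Msln (-5.65) completed the group with 2 genes that were not well above background in the cells on any array. For these 2 only a bound can be given: Efemp1 was at least 83.4-fold lower and Ifi202b at least 58.9-fold lower in the cells (measured means -6.51 and -5.90). Genes above background in 1 channel alone passed the filter through that channel, so no p is given for their ratio against 0. Bounds set the bright channel against the lowest signal that counts as above background, or against the dim channel's own signal where that was higher. Where the own signal was higher on every array, the bound equals the measured mean. Bounds are means over the 3 arrays, so a single array can lie below them. Spike-in RNAs, added in known ratios, differed between arrays by 0.43 to 0.64 log2 units, highest on A and lowest on C; what that adds to differences between arrays was not tested. Array A gave the least negative ratio of the 3 for 11 of these 12 genes, by up to 0.40.

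**Figure D2:**
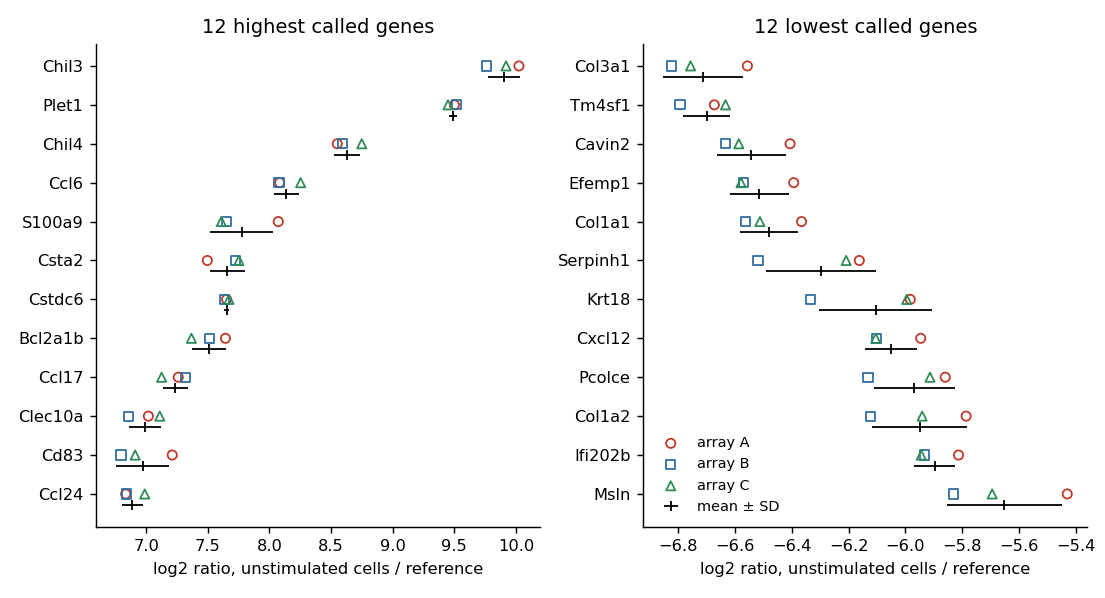
Log2 ratio of unstimulated cells to reference on arrays A, B and C (open symbols) for the 12 highest and the 12 lowest called genes, with the mean and SD of the 3 arrays below each row. Symbols of a gene lie close together compared with the distance of the means from 0: Plet1 spans 0.07 and Chil3 0.26 at a mean of 9.90.

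The defining gene of the culture, Itgax, which encodes the integrin CD11c, was enriched. Its ratios were 4.44, 4.30 and 4.40, a mean of 4.38 ± 0.07 (SD, n = 3), or 20.8-fold (adjusted p = 1.54e-11). Of 16 dendritic cell markers tested 12 were enriched and none was depleted, with a median log2 ratio of 2.29, against -0.07 over all genes tested. Clec4n (6.58), a lectin for fungal sugars, Ccr7 (5.03), Batf3 (4.00), Irf8 (2.39) and Irf4 (1.68), transcription factors of dendritic cell subsets, and Itgae (1.92) were among them. Not every marker followed. Flt3, the receptor for the cytokine that drives steady-state dendritic cells, had ratios of -0.12, 0.19 and 0.05 and was above background in the cells on 2 of 3 arrays. Zbtb46, a transcription factor of conventional dendritic cells, had a mean of 0.65 (adjusted p = 3.84e-05, under 2-fold), and Xcr1 0.10. Cd209a and Clec9a were not well above background in either channel on all 3 arrays and were not tested.

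Antigen presentation by MHC class II was enriched across nearly its whole list, with 13 of 14 genes called and a median of 3.93. H2-Ab1, the beta chain of the I-A molecule, had ratios of 4.72, 4.31 and 4.55 (mean 4.53), and its 2 further probes gave 5.93 and 5.08. H2-Aa, the alpha chain, had a mean of 5.47, H2-DMb1, which helps load peptides, 5.08, and H2-Eb1 4.83. Cd74, the invariant chain that guards the groove, stood at 4.07, 3.72 and 4.15, and Ciita, the factor that switches these genes on, at 3.98, 3.47 and 3.63. H2-Ob, which restrains loading, was the exception: it was not called, and its reference channel was not above background on any array. Array B gave the lowest value for Cd74, Ciita and H2-Ab1, and all 3 arrays were far above 0.

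Costimulation and maturation genes were already enriched without LPS in 10 of 15 cases (median 1.65). Ccr7, the receptor that leads dendritic cells to lymph nodes, had ratios of 5.32, 4.77 and 5.01. Cd86 stood at 2.36, 2.29 and 2.37 (5.06-fold, adjusted p = 1.02e-09) and Cd80 at 1.53, 1.83 and 1.60 (3.14-fold). The inhibitory ligands Pdcd1lg2 (4.13) and Cd274 (2.79) were enriched with them. Fscn1, an actin-bundling protein of mature dendritic cells, was depleted at -1.21, -1.69 and -1.70 (adjusted p = 2.96e-07). Ccl22 was not well above background in either channel on all 3 arrays and was not tested, and Cd40 had no probe that could be named.

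In the list drawn up for receptors and signal carriers of the 2 cytokines in the medium, 12 of 18 members were enriched (median 1.79). Cish, a feedback inhibitor induced by STAT5, led with 5.36, 5.36 and 5.39. Csf2ra, the GM-CSF receptor's own chain, stood at 4.14, 4.02 and 3.97. Csf2rb, the common beta chain, had a mean of 2.77 and its paralogue Csf2rb2 4.40. Probes of such paralogues can catch each other's RNA, so the separate levels of these 2 are uncertain. Socs1 (4.01), Stat5a (3.19), Socs2 (3.00) and Jak2 (2.90) were also enriched. On the IL-4 side Il4ra was less even, at 1.65, 1.06 and 1.81 (mean 1.51, adjusted p = 1.55e-06). Stat6 (0.52), Il2rg (0.24) and Il13ra1 (0.28) lay under 2-fold, and Jak3, the kinase bound to the gamma chain, was depleted (-1.16). The other Jak3 probe gave -0.76 and was not called.

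Genes known to respond to IL-4 gave the highest median of all 44 lists, 4.58, with 22 of 23 enriched and none depleted. Arg1, the arginase of alternatively activated macrophages, had ratios of 6.72, 6.49 and 6.78, a mean of 6.66 ± 0.15 (SD, n = 3), or 101-fold (adjusted p = 3.44e-12). Retnla, a secreted resistin-like protein, stood at 5.06, 5.14 and 5.21. Mgl2 (6.19), a lectin next to Clec10a in function, Cdh1 (5.71), E-cadherin, Egr2 (4.58) and Tgm2 (4.40) were also in this group. Mrc1, the mannose receptor, had a mean of 3.48 and was above background in the reference on 1 array only. For Alox15, a lipoxygenase, only a bound holds, because the reference was not above background on any array. Alox15 was at least 2.57-fold higher in the cells (measured mean 1.36). Klf4 (0.41) was the 1 member not called. This list was assembled with earlier results of these arrays known, so its median describes the culture and is not separate evidence.

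**Figure D3:**
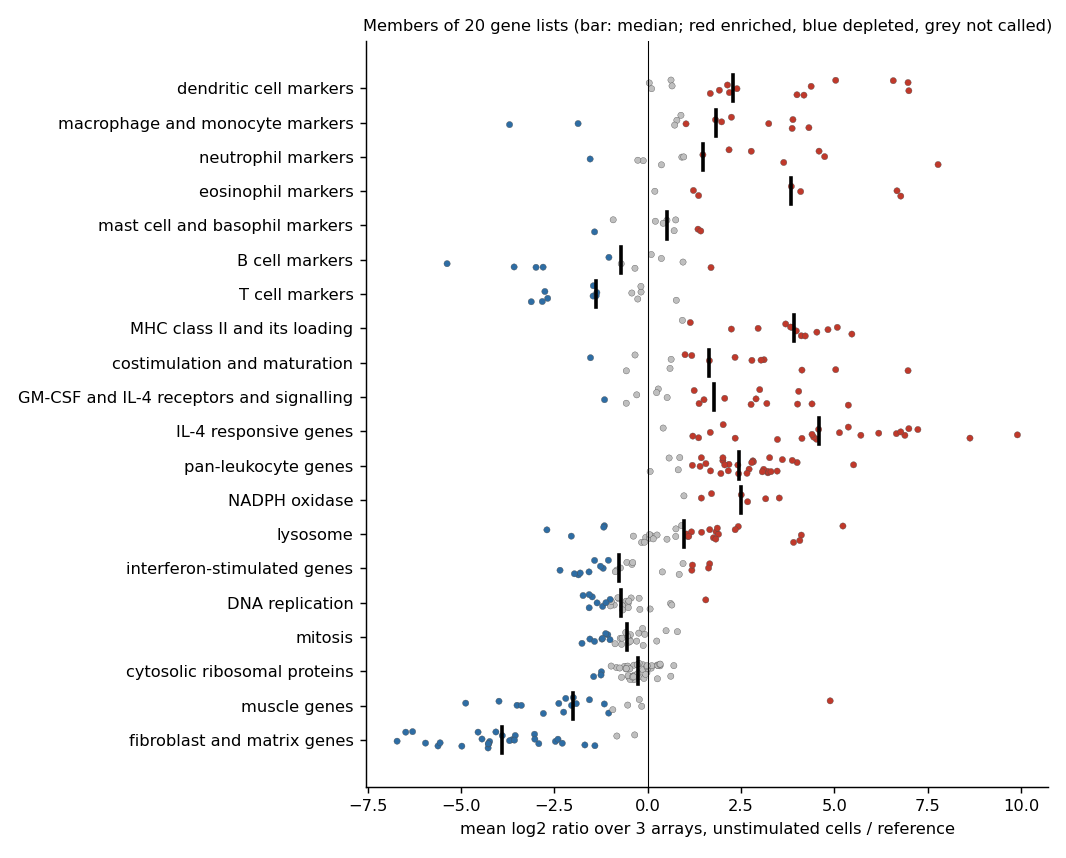
Mean log2 ratio of unstimulated cells to reference for the tested members of 20 gene lists; each point is a gene, red enriched, blue depleted and grey not called, and the black bar is the list's median. Medians run from -3.89 for fibroblast and matrix genes to 4.58 for IL-4 responsive genes.

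Leukocyte identity showed across many families. Of 33 pan-leukocyte genes 29 were enriched (median 2.43), led by Cd52 (5.51), Fgr (4.00), a Src-family kinase, Selplg (3.87), a ligand of selectins, and Tyrobp (3.61), an adaptor with an activating motif. Itga4 (0.07), Vav1 (0.57), Arhgdib (0.82) and Cd37 (0.86) were not called. Of 26 myeloid transcription factors 14 were enriched and 2 depleted. Spi1 stood at 1.49, 1.10 and 1.12 (mean 1.24, adjusted p = 7.73e-07), Tfec at 4.41, Irf5 at 3.92 and Pparg, the lipid-sensing receptor, at 1.78. Maf (-2.08) and Cebpd (-1.31) were the 2 depleted factors. The other Maf probe gave -0.49 and was not called.

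Receptors for antibody, paired immunoglobulin-type receptors and others listed with them, lectins included, were enriched in 17 of 23 cases (median 2.70). Among them were Clec4a2 (5.53), Pirb (5.23), Fcgr3 (4.59) and Fcgr2b (3.59). Clec4e, a receptor for mycobacterial glycolipid, was the 1 depleted member (-1.38). The NADPH oxidase, which makes superoxide in phagosomes, was enriched in 6 of 7 subunits, Cyba (3.16) and Rac2 (1.44) among them, and Rac1 lay at 0.97.

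Lysosomal genes split. Of 34 tested 17 were enriched and 4 depleted, with a median of 0.98. The cathepsins alone ran in both directions: Ctsh had ratios of 5.31, 5.07 and 5.31, Ctss 3.87, 4.14 and 4.33, and Ctsc 3.75, 4.00 and 3.97, while Ctsl was depleted at -2.91, -2.93 and -2.26 (adjusted p = 1.25e-08). Cathepsin S is the protease known for trimming the invariant chain in dendritic cells, and cathepsin L has that role in thymic epithelium. Cd63 (-2.05), Galns (-1.18) and Atp6ap1 (-1.16) were also depleted, and Psap (4.07) was enriched.

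Chemokines and their receptors were uneven as well. Of 20 chemokines 9 were enriched and 5 depleted, from Ccl6 at 8.14 to Cxcl12 at -6.05. Besides those already named, Ccl4 (4.75), Ccl9 (4.44) and Cxcl16 (2.72) were enriched and Pf4 (-3.17), Ccl7 (-2.09) and Cxcl10 (-1.19, above background in the cells on 1 array) depleted. Of 16 chemoattractant receptors 11 were enriched and none depleted: the leukotriene B4 receptor Ltb4r1 stood at 5.87. Ccr2, the monocyte receptor for Ccl2, was at least 14.2-fold higher in the cells, with the reference not above background on any array (measured mean 3.87). Among 14 cytokine genes Il1b was enriched but varied, at 3.68, 3.78 and 2.73, beside Ebi3 (3.58) and the antagonist Il1rn (2.61); Tnf lay at 0.64 and Csf1 was depleted (-1.32).

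The LPS sensing pathway of these unstimulated cells lay near the reference, with 5 of 20 genes enriched, 2 depleted and a median of 0.33. Over all genes tested 12.2% were enriched and 15.6% depleted. Tlr4, the LPS receptor, had ratios of -0.18, 0.13 and 0.06, and its partner Ly96 1.08, 0.49 and 0.56 (mean 0.71, adjusted p = 0.000222, under 2-fold). Cd14, the co-receptor that hands LPS to Tlr4, was depleted at -2.01, -1.83 and -1.75, a mean of -1.86 ± 0.13 (SD, n = 3), with an adjusted p of 1.13e-08. Ticam1 (1.30), Myd88 (1.20), Tlr2 (1.16), Irak3 (1.12) and Tnfaip3 (1.10) were enriched by little more than 2-fold. The other Irak3 probe gave 0.11 and was not called.

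Set against the same reference, the cultures given LPS show where some of these ratios lay later. These values were not tested here. Of the LPS arrays only letter A at 1 h lay on the slide of the unstimulated ones. Slide and LPS therefore cannot be told apart in these values. Cd14 had means of 1.48 at 1 h, 0.98 at 6 h and 2.68 at 24 h, and its lowest array after LPS, 0.72, was above the highest unstimulated one. Isg15, an interferon-induced ubiquitin-like protein, moved from -1.96 in unstimulated cells to 1.90, 4.31 and 3.21. Cd86 had 2.64, 4.26 and 4.29 after 2.34, and its 1 h arrays (2.53 to 2.74) lay just above the unstimulated ones. Itgax (4.67, 4.43 and 4.58), H2-Ab1 (4.73, 4.57 and 4.77) and Chil3 (10.23, 9.93 and 10.07) had ranges that overlapped the unstimulated arrays at all 3 times. Mrc1 lay at 4.70, 3.53 and 0.55.

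Interferon-stimulated genes were low against the reference at rest, with 9 of 22 depleted, 4 enriched and a median of -0.78. Irf7, the factor that amplifies interferon, stood at -1.78, -2.10 and -1.68, Isg15 had a mean of -1.96 with a range of 0.12 over the arrays, and Oasl1 stood at -2.29, -2.32 and -2.44. Gbp5 (1.66), Stat2 (1.63) and Oas1a (1.18) were among the enriched members.

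Lipid handling genes were enriched in 11 of 22 cases (median 0.98). Mgll, which breaks down monoacylglycerols, stood at 6.25, 6.05 and 6.28, Fabp4, a fatty acid carrier, at 5.49, 5.80 and 5.87, and Lpl at 4.71. The leukotriene genes Alox5 (4.50), Ltc4s (3.54) and Alox5ap (2.72) were enriched together, and Angptl4 was depleted (-2.39). In glycolysis 8 of 23 genes were enriched and 4 depleted, and members with the same enzyme activity differed: Hk3 (2.82) and Hk2 (1.57) were enriched while Hk1 lay at -0.72, and Pfkp (1.65) was enriched while Pfkm (-1.70) was depleted. Mitochondrial respiration (4 enriched and 1 depleted of 32) and cholesterol synthesis (5 and 1 of 20) had medians of 0.44 and 0.42. Over all genes tested 12.2% were enriched and 15.6% depleted, and the enriched count for respiration is near that share.

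Proliferation genes were lower than in the reference but not by much. In DNA replication 8 of 26 genes were depleted and Ccne1 (1.55) was enriched, with a median of -0.72; Pole stood at -1.65, -1.81 and -1.74 and Mcm7 at -1.32, -1.71 and -1.67. In mitosis 8 of 26 were depleted and none enriched (median -0.56), with Top2a lowest at -1.69, -1.87 and -1.72. The other Top2a probe gave -0.80 and was not called. The medians of both lists stayed below 0 under median centring, at -0.36 and -0.22. Cytosolic ribosomal protein genes had a median of -0.27, with 3 of 44 depleted, but under median centring the median was 0.81 and 14 were enriched, so no direction is given for them. The same holds for commonly used reference transcripts, at -0.32 and 0.49. Actb itself lay at 0.34, Ppia at -1.33 and Eef2 at -1.93. The other Eef2 probes gave -2.82 and 0.01, the last not called.

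Markers of other blood cells were read on the same arrays, because the culture was not sorted. Of 13 macrophage and monocyte markers 8 were enriched and 2 depleted. Lyz2, lysozyme, stood at 4.17, 4.44 and 4.34. Adgre1, the F4/80 antigen, stood at 2.00, 1.97 and 2.76, and its other probe gave 0.46 and was not called. The 2 depleted markers were Fn1 (-3.70) and Cd14 (-1.86). Neutrophil markers were enriched in 7 of 13 cases and depleted in 1 (Mmp9, -1.54), with medians of 1.88 on array A, 1.40 on B and 1.36 on C. The other Mmp9 probe gave -0.44 and was not called. S100a8, the partner of S100a9, had 5.15, 4.67 and 3.94, the neutrophil chemokine receptor Cxcr2 4.84, 5.15 and 4.23 with the reference above background on 1 array only, and Ltf, the granule protein lactoferrin, at least 12.4-fold higher in the cells. Camp, Elane, Retnlg and Csf3r were not above background in either channel on all 3 arrays, and Ly6g had no probe that could be named. Of 7 eosinophil markers 6 were enriched, led by the ribonucleases Rnase2a (6.78) and Ear1 (6.68). Epx, Prg3 and Il5ra, which define eosinophils, were not above background on all 3 arrays in either channel and were not tested. Rnase2a and Alox15 stand in the IL-4 list too. What neutrophils, eosinophils or other cells add to the ratios given above was not tested.

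Lymphoid markers were low against the reference. A low ratio can come from little RNA in the cells or from much in the pool. Of 13 T cell markers 8 were depleted and none enriched (median -1.38), with Tcf7 at -3.12 and Lck at -2.82. The cells were above background on no array for 4 of those 13. Of 11 B cell markers 5 were depleted and Fcrla was enriched; Pou2af1 stood at -5.37 and Ms4a1 at least 11.2-fold lower, not above background in the cells on any array. The B cell median, -0.71, was 0.05 when probes dim in both channels were kept. Cd3e (-0.18) was not called. Cd79a, Cd4, Rag1 and Pax5 were not above background on all 3 arrays in either channel and were not tested. Mast cell markers (2 enriched and 1 depleted of 9) had a median of 0.52, which turned to -0.36 when only probes above background in both channels were kept. Kit, the stem cell factor receptor, was at least 2.67-fold higher in the cells. Of 12 progenitor markers 5 were depleted, Cd34 lowest at -1.93, and 3 enriched. Erythroid and megakaryocyte markers had 3 enriched and 1 depleted of 13, and of 3 NK cell markers tested 1 was enriched. Plasmacytoid dendritic cell markers split (3 enriched and 2 depleted of 10), with a median of -0.13 that was 0.29 under median centring. Over all genes tested 12.2% were enriched and 15.6% depleted. Nothing is read from the small mast cell, erythroid, NK and plasmacytoid counts.

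Genes of other tissues, which a pooled reference can hold, ran from lists that were almost wholly depleted to lists with more enriched than depleted members. Of 29 fibroblast and matrix genes 27 were depleted and none enriched, with a median of -3.89: Ccn2 (-5.62, above background in the cells on 2 arrays) and Dcn (-5.56), a collagen-binding proteoglycan, followed the collagens, and Fap, not above background in the cells, and Thbs1 were not called. Of 19 muscle genes 14 were depleted, Tagln lowest at -4.73, -5.02 and -4.87, and of 16 epithelial genes 8 were depleted. One gene in each ran the other way: Ckb, a creatine kinase of brain and muscle, stood at 5.03, 4.73 and 4.90 and Cdh1 at 5.53, 5.76 and 5.83. In the hepatocyte list 11 of 20 genes, Alb among them, were not above background on all 3 arrays in either channel. Trf (4.34) and Rbp4 (3.27) were enriched. Many neural, melanocyte and endothelial genes also failed that filter (11 of 16, 5 of 10 and 9 of 14). Flt1 (4.52), a receptor for VEGF, and Vwf (2.56), von Willebrand factor, were among the 3 endothelial genes enriched, of 5 tested. The neural list had 1 enriched and 3 depleted of 5. Embryonic and imprinted genes had 8 of 14 depleted and none enriched, and steroidogenic and testis genes 4 depleted and 2 enriched of 14. The steroidogenic counts stand against 15.6% depleted and 12.2% enriched over all genes tested. The cells were above background on no array for 7 of the 29 fibroblast, 7 of the 19 muscle and 5 of the 14 embryonic genes. Those genes passed the filter through the reference alone. Matrix metalloproteinases and their inhibitors split by member: Mmp12, the macrophage elastase, stood at 4.92, 4.97 and 5.19, and Mmp2 (-2.87), Mmp14 (-3.18), Timp3 (-4.27) and Timp2 (-4.86) were depleted. Mmp3 was at least 14.1-fold lower, not above background in the cells on any array.

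How the 3 resting cultures differed among themselves was read from the spread. A range of 1 log2 unit or more over the arrays was found for 76 of 12074 genes. The transcripts of the sex chromosomes set array A apart. Eif2s3y, a translation factor gene on the Y chromosome, had ratios of 2.86, -1.12 and -1.05, Ddx3y 0.66, -1.69 and -1.59 and Kdm5d 0.62, -0.65 and -0.81. Xist, the RNA that coats the silent X chromosome, ran the other way at -1.32, 1.80 and 1.47. The 3 Y-linked genes were above background in the cells on array A alone, and Xist on B and C alone. The same letters kept these values after LPS: the 3 Y-linked genes were above background on every A array at 1, 6 and 24 h and on no B or C array, and Xist on every B and C array and on no A array. None of the 4 was called against the reference over the 3 arrays.

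**Figure D4:**
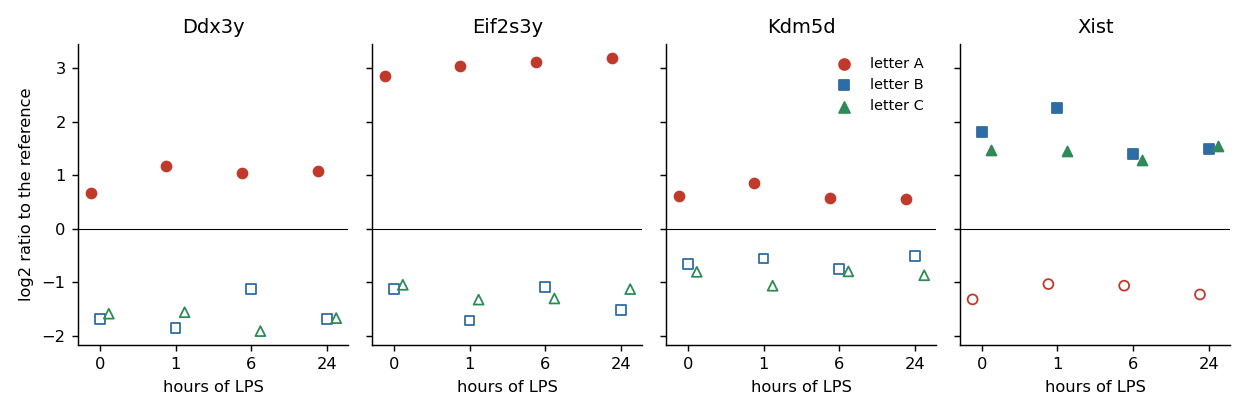
Log2 ratio to the reference (vertical axis) of 3 Y-linked genes and Xist on all 12 arrays, by hours of LPS (0 is the unstimulated group) and letter; filled symbols are above background in the cells and open symbols are not. Letter A lies above 0 for Ddx3y, Eif2s3y and Kdm5d and below 0 for Xist at every time, and letters B and C the reverse.

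The 10 genes of widest range, among those above background in both channels, fell into 2 patterns. Zfp386 (-0.26, 3.13 and 0.07), Zfp446 (-0.14, 2.68 and -0.28), Pdcd1 (-3.02, -0.83 and -3.21), Syn3 (0.27, 2.59 and 0.28) and Creb3l3 (0.07, 2.04 and 0.48) were high on array B alone. The spots of the first 4 lie in columns 61 and 62 of 85. Of 23 probes that were over 1.5 log2 units higher on array B than on the other arrays, 18 lie in these columns between rows 340 and 445 of 532; array A had 11 such probes with 2 in columns 60 to 63, and array C 2 with none there. Second probes for Zfp386 (-0.20, 0.18 and 0.17) and Syn3 (0.12, 0.14 and 0.16), placed elsewhere, were even, though that of Syn3 was above background in the cells on 1 array. With the array B spots of columns 60 to 63 left out, Syn3 fell to 0.28 and lost its call, and 1469 genes were enriched and 1880 depleted.

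In the other pattern array A was highest and array B lowest: Tm4sf4 (2.79, 0.76 and 1.74), 4930449I24Rik (2.76, 0.79 and 1.62), Homer2 (2.25, 0.30 and 1.05), Defb36 (2.92, 1.03 and 1.99) and Dmbx1 (2.88, 1.08 and 1.63). These 5 were called enriched. Second probes for Homer2 (0.02, -0.07 and 0.09) and Dmbx1 (0.04, 0.23 and 0.05) did not repeat the values, and in each case the second probe was above background in the cells on 1 or 2 arrays.

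**Figure D5:**
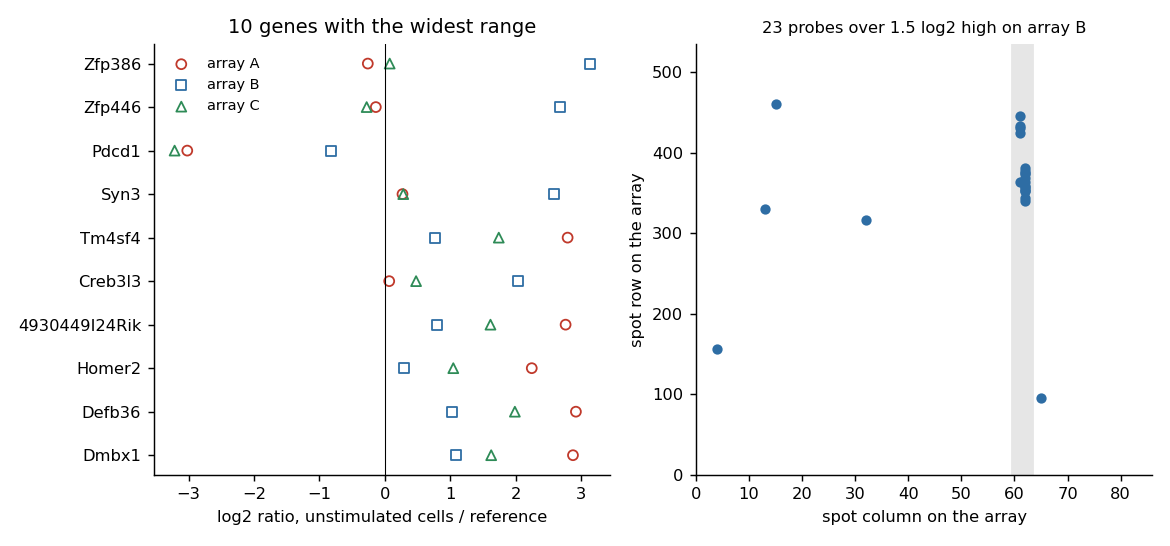
Left, log2 ratios on arrays A, B and C of the 10 genes with the widest range among genes above background in both channels; right, the position on the array (spot column and row) of the 23 probes over 1.5 log2 units higher on array B, with columns 60 to 63 shaded. On the left 5 genes are high on array B alone; on the right 18 of the 23 spots lie in 1 narrow band.

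Where a gene had several probes they often differed: among 3828 such genes the median spread was 0.47, and in 772 it was over 1. For 4 genes (Calm3, Slc31a1, Pold3 and Ahnak) probes were called in opposite directions. Il1rl1, the IL-33 receptor, had -0.92 from its brightest probe, which was not called, and -5.15 and -2.27 from the others. Krt8 gave -4.80 and -6.35, and Mgll 6.19 and 5.73. The value printed for a gene is that of its brightest probe.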

How the data were processed

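Scanner files, as deposited, hold the intensity of each spot and its local background in both channels, unnormalized, and a log10 ratio of red over green from Agilent Feature Extraction 10.7.3.1 (protocol GE2_107_Sep09), per the file headers. The authors' value table, as deposited, matches log2 ratios of cells over reference. On the unstimulated arrays its values correlated with those derived here at r of at least 0.9998. The lowest r of the other arrays was 0.99949, for letter C at 1 h of LPS. The submitters' processing notes name limma, without a version or a role.

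Intensities were background-corrected (normexp, offset 50) and normalised within arrays by loess (span 0.3) with limma 3.58.1 in R 4.3.3 (jsonlite 2.0.0 read the labels). Local backgrounds marked as outliers were replaced by the array median and outlier spots left out. Spots of a probe were averaged; probes above background in either channel on all 3 arrays were tested with lmFit and eBayes against 0, with Benjamini-Hochberg adjustment over 24708 probes. The test leaves out any spread of the reference, which is 1 pool, and has 2 residual degrees of freedom; an exact sign-flip test on 3 arrays cannot go below 0.25. A gene is its brightest probe, named by RefSeq accession (22951 of 41174 probes matched GRCm38.p6). In simulated data with independent normal noise, 66 or 67 of 24708 probes were changed at each size, without dye bias or reference spread. There the test recovered 88.1% of probes changed by 1.5 log2 units, 95.5% at 2 and 98.5% at 3. On the real arrays 18583 probes passed the adjusted p at any fold, so these shares are not the power of the real test. Spike-in ratios rose with the expected ones at slopes of 0.891 to 0.908, which sets the direction.

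Genes are named by rule: the 12 highest and 12 lowest, the 10 of widest range, a list of defining genes, and in each list up to 4 called members in its main direction and 2 in the other; others were picked after their values were seen. The members and lists were chosen with earlier results of these data known. Alternatives changed the normalization, background, filter, test, probe rule and arrays used. Some genes are not reported here.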

Additional observations from a re-analysis of the deposited data

How the results depend on the processing

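Enriched genes numbered 1472 and depleted genes 1881, and the counts stayed within 1.5 times of these under the alternatives of normalization, background, filter, test and arrays, with these exceptions. Depleted genes numbered 3588 with signals already processed by the scanner software; the cause was not tested. Without the 2-fold rule the adjusted p alone called 4281 and 5223, and at least 4-fold called 533 and 593, both by construction. Leaving out part of array B (columns 60 to 63), chosen after seeing the data, gave 1469 and 1880. Leaving out each array in turn gave 1471 to 1487 enriched and 1827 to 1930 depleted genes. The letters shared by the 4 groups gave a fit of all 12 arrays with the replicate as a block, with 1472 and 1881; the fit of 12 arrays without the block gave 1470 and 1881. Of 223 named genes none reversed under any of these alternatives. Under median centring 213 kept their call, and 203 did in a test against 2-fold. List medians were less stable. Of 44, 38 moved by at least their SD over the 3 arrays with the scanner software's signals. With a normexp offset of 16, 27 moved, and under median centring 22. The sign of the median turned for 3 lists under median centring and for 3 without a filter. Signal over background limits the dim genes, with 1136 genes above background in the reference alone.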

Other observations

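Among the genes past 16-fold, 3 further families were noticed after the values were seen. Kallikrein-related serine proteases of the Klk1b cluster were high: Klk1b11 had ratios of 6.83, 6.75 and 6.97, Klk1b9 5.32, 5.83 and 6.34 and Klk1b8 4.93, 4.99 and 5.36. These genes are near-identical copies whose probes can catch each other's RNA. Dcstamp (5.74, 5.91 and 5.75) and Ocstamp (5.37, 5.15 and 5.24), membrane proteins needed when precursors fuse into giant cells or osteoclasts, were both enriched. The clotting factors F7 (5.64, 5.28 and 5.67) and F10 (5.52, 5.28 and 5.37), known as liver products, were enriched too, while F13a1 stood at -0.66, 0.23 and 0.01.

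Above background in the cells on all 3 arrays and in the reference on none were 176 genes. The highest was Il7r, the IL-7 receptor, at least 21.5-fold higher in the cells, followed by Wfdc21 at least 18.5-fold and Ffar2, a receptor for short-chain fatty acids, at least 15.6-fold. Siglecf, an eosinophil and alveolar macrophage lectin, was at least 13.8-fold higher. In erythroid genes Hbb-bt stood at 4.24, 4.11 and 3.95 and Hba-a1 at 0.13, 0.27 and 0.24, the first from the brightest of its 4 probes and the other from its 1 probe. The other Hbb-bt probes gave means of 4.06, 2.55 and 0.85, the last not called.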
